A study of Mus musculus with 27 samples.

Results

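The genes described here encode the TGFβ ligands Tgfb1, Tgfb2 and Tgfb3, the receptors Tgfbr1 and Tgfbr2, the TGFβ-responsive genes Tgfbi, Pmepa1 and Skil, and the PDGF receptors Pdgfra and Pdgfrb. They were chosen by symbol, as a set of 10 genes through which TGFβ and PDGF act on the stellate cells of the liver. A gene was measured by the transcript clusters on the array that carry its symbol alone. By this rule 9 of the 10 genes were measured, out of 18820 genes in all. The only cluster of Tgfbr2 also carries the symbol of another gene, so Tgfbr2 was not analysed here. All 9 measured genes passed the filter on low and flat values, as did 13993 genes in all, so no gene of the set was lost to it.

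Liver RNA came from 27 male C57BL/6J mice that were 28 months old at sacrifice, with 1 array per mouse. The control group (C, 8 mice) ate AIN-93W without limit from young adulthood onwards, and the medium-fat group (MF, 7 mice) ate the AIN-93W-MF diet, with 25% of its energy as fat, without limit. The calorie-restricted group (CR, 5 mice) received AIN-93W-CR in daily portions at 30% restriction, and the diet switch group (CR-MF, 7 mice) followed the same restriction until 24 months of age and then ate the MF diet without limit for 4 months. All mice were fasted, were given carboxymethyl cellulose by gavage and were fasted again before sacrifice, and the CR mice received part of their daily portion shortly before the first fast. This feeding differed only for the CR group, so its part in any difference from CR cannot be told apart from that of the diet.

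TGFβ is secreted in a latent complex that is stored in the matrix and released by integrins and proteases. The active ligand binds the type II receptor, which recruits and phosphorylates the type I receptor encoded by Tgfbr1, and this in turn phosphorylates Smad2 and Smad3, which enter the nucleus with Smad4. PDGF dimers bind tyrosine kinase receptors encoded by Pdgfra and Pdgfrb and activate PI3-kinase, Ras and phospholipase C. In the liver, the vitamin A-storing stellate cells of the space of Disse are known as the main responders: PDGF drives their proliferation and migration, and TGFβ their production of collagen.

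The arrays measured whole liver, so no value here belongs to stellate cells alone. Of 26 measured stellate cell markers, all but Gfap and Nes had a mean above the intensity minimum of 20 (log2 4.32). Lrat, which esterifies retinol for storage, had a mean log2 intensity of 9.12 (range 8.48 to 9.79 over the 27 mice), and Reln, which encodes the secreted protein reelin, one of 9.42 (8.92 to 9.87). In bulk tissue, fewer cells of a type and less RNA per cell cannot be told apart. All values are log2 intensities, so a difference of 1 is a doubling. They are compared between diets for one gene, never between genes, since probes differ in brightness. Array medians ranged from 5.38 to 5.48, and pairs of arrays correlated at 0.975 to 0.991.

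Between the lifelong MF and CR diets, the PDGF receptor gene Pdgfrb was 1.57-fold and the TGFβ-responsive gene Pmepa1 1.53-fold higher in MF (limma, adjusted p 0.0195 and 0.0188). The means of all 9 measured genes were higher in MF, with a median log2 difference of 0.36, while the median over all tested genes was -0.01 and 48.6% of them were higher. Of the tested genes, 5.42% passed an adjusted p of 0.05 in this comparison (2.8% with higher values in MF), against 2 of 9 genes of the set. At an unadjusted p under 0.05 there were 6 of 9, all higher in MF, against 23.7% of tested genes. In CR-MF mice no gene of the set differed from CR at either threshold, and the means of all 9 lay below those of MF, none of them past an adjusted p of 0.05.

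**Figure D1:**
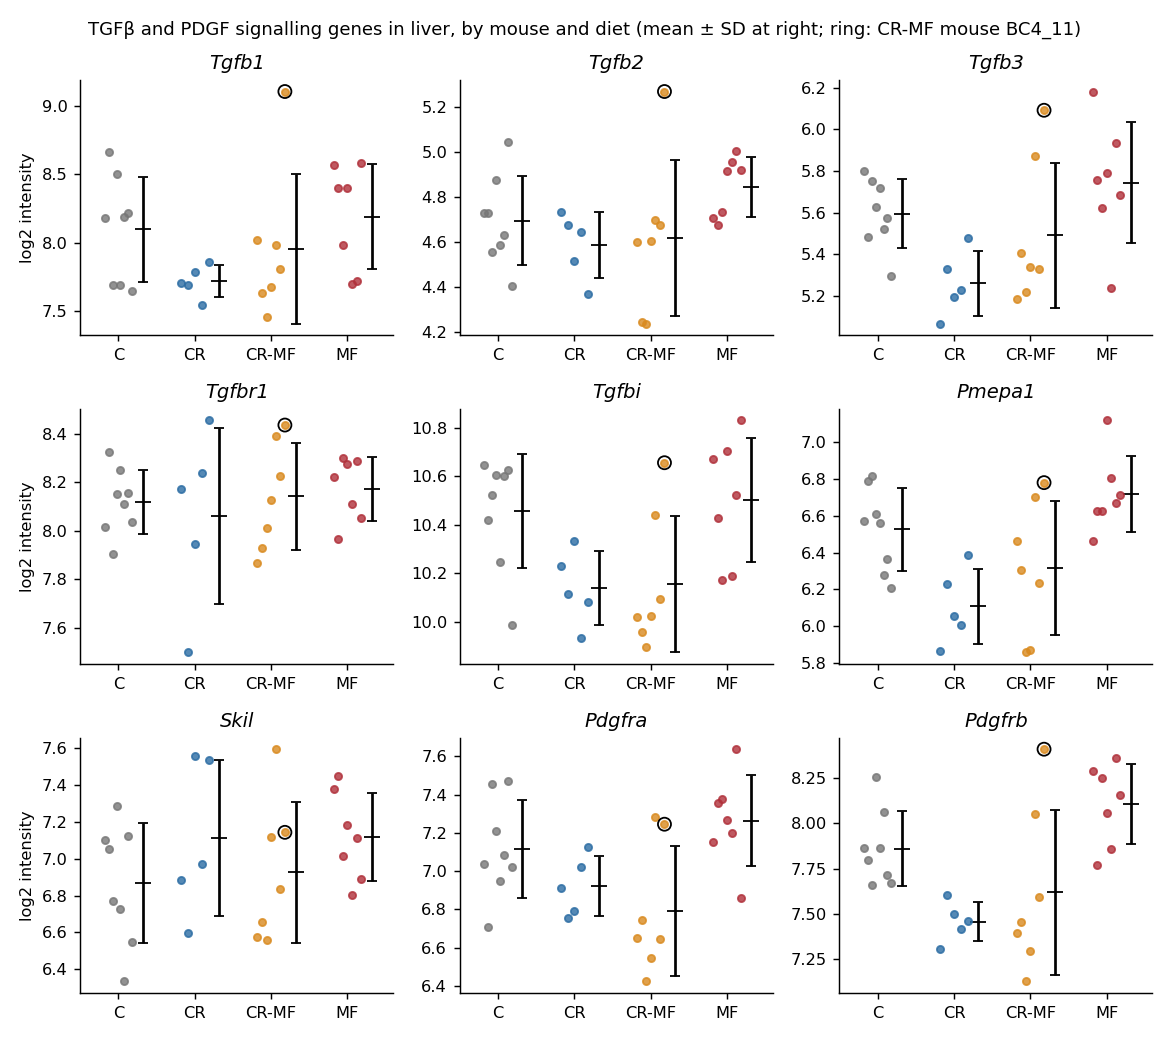
Log2 intensity (vertical axes) of the 9 measured genes in each mouse of the C, CR, CR-MF and MF diets, with the group mean ± SD at the right of each group and a ring around CR-MF mouse BC4_11. The MF and CR mice do not overlap for Pdgfrb and Pmepa1, and the ringed mouse is the highest of its group for 7 of the 9 genes.

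Pdgfrb, which encodes the receptor for PDGF-B and PDGF-D dimers and is the PDGF receptor used as a marker of stellate cells and pericytes, was measured in the 5 CR mice at log2 intensities of 7.31, 7.60, 7.50, 7.41 and 7.46. The lowest, median and highest values were 7.77, 8.16 and 8.36 in MF, 7.66, 7.83 and 8.25 in C, and 7.13, 7.46 and 8.41 in CR-MF. All MF mice and all C mice lay above all CR mice, whereas the CR-MF mice spanned both ranges: 5 of them lay between 7.13 and 7.59, and the other two at 8.05 and 8.41. The means, with their SD, were 7.46 ± 0.11 for CR (n = 5), 7.62 ± 0.45 for CR-MF (n = 7), 7.86 ± 0.21 for C (n = 8) and 8.11 ± 0.22 for MF (n = 7). The MF mean was above the CR mean by 0.65 (SE 0.16, limma adjusted p 0.0195). Neighbours in the order CR, CR-MF, C and MF did not pass an adjusted p of 0.05: the log2 differences were 0.16 (SE 0.16, adjusted p 0.727) for CR-MF minus CR, -0.24 (SE 0.14, adjusted p 0.534) for CR-MF minus C and 0.25 (SE 0.14, adjusted p 1) for MF minus C.

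Pdgfra encodes the receptor that binds PDGF-A and PDGF-C as well, and is found on stellate cells and portal fibroblasts. Its log2 intensity in the CR mice was 6.91, 6.75, 6.79, 7.02 and 7.12. The lowest, median and highest values were 6.86, 7.27 and 7.64 in MF, 6.71, 7.06 and 7.47 in C, and 6.42, 6.65 and 7.28 in CR-MF. The CR-MF group was the lowest of the 4 diets for this gene, with 5 of its 7 mice below every CR mouse and the other two, BC4_15 and BC4_11, above every CR mouse. Means were 6.79 ± 0.34 in CR-MF, 6.92 ± 0.16 in CR, 7.12 ± 0.26 in C and 7.26 ± 0.24 in MF. Its smallest p was in the comparison of CR-MF with MF, with a log2 difference of -0.47 (SE 0.14, adjusted p 0.074), and MF minus CR was 0.34 (SE 0.15, adjusted p 0.161).

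Among the ligands, Tgfb1 encodes the isoform that is most studied in liver fibrosis and is made by macrophages, platelets and other cells. Its log2 intensity in the CR mice was 7.70, 7.69, 7.79, 7.54 and 7.86. The lowest, median and highest values were 7.70, 8.40 and 8.58 in MF, 7.65, 8.18 and 8.66 in C, and 7.45, 7.80 and 9.10 in CR-MF. CR was the group with the smallest spread (SD 0.12, against 0.39 in C, 0.39 in MF and 0.54 in CR-MF), and its 5 mice lay where the lowest mice of the other groups lay. The 9.10 of CR-MF mouse BC4_11 was the highest Tgfb1 value of all 27 mice, and the next CR-MF mouse was at 8.02. MF minus CR was 0.47 (SE 0.22, adjusted p 0.196), the smallest p of Tgfb1 in any comparison.

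Tgfb3, the isoform that in liver is known from stellate cells and fibroblasts, gave 5.07, 5.33, 5.20, 5.23 and 5.48 in the CR mice. The lowest, median and highest values were 5.24, 5.76 and 6.18 in MF, 5.29, 5.60 and 5.80 in C, and 5.18, 5.34 and 6.09 in CR-MF. All MF mice but C4_13 were higher than every CR mouse. The log2 difference of MF minus CR was 0.48 (SE 0.15, adjusted p 0.0512), just outside the threshold, and without C4_13 it was 0.57 (adjusted p 0.0165). Leaving out other mice could also weaken it. The highest adjusted p was 0.129, without CR mouse B4_1, and the smallest log2 difference was 0.41, without MF mouse C4_1.

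Tgfb2 was near the lower limit of the array, above the minimum on 25 of 27 arrays, with means of 4.59 ± 0.15 in CR, 4.62 ± 0.34 in CR-MF, 4.69 ± 0.20 in C and 4.84 ± 0.13 in MF. Its MF minus CR difference of 0.26 (SE 0.13) had an adjusted p of 0.228. Tgfbr1, the type I receptor, had means between 8.06 and 8.17 in the 4 diets, and a log2 difference of MF minus CR of 0.11 (SE 0.12, adjusted p 0.616). The SE exceeded this difference, and its sign turned when CR mouse B4_5, the lowest of its group at 7.50, was left out (-0.03).

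Tgfbi encodes a secreted matrix protein that was first found as a transcript induced by TGFβ. Its log2 intensity was 10.23, 10.12, 10.33, 9.93 and 10.08 in the CR mice. The lowest, median and highest values were 10.17, 10.52 and 10.83 in MF, 9.98, 10.56 and 10.64 in C, and 9.89, 10.02 and 10.66 in CR-MF. In CR-MF, 5 mice lay between 9.89 and 10.09, below all MF mice, and BC4_15 (10.44) and BC4_11 (10.66) lay within the MF range. The log2 difference of CR-MF minus MF was -0.35 (SE 0.12, adjusted p 0.166) and that of MF minus CR 0.36 (SE 0.14, adjusted p 0.106).

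Pmepa1 encodes a membrane protein that is induced by TGFβ and sequesters Smad2 and Smad3, which makes it part of the negative feedback on the pathway. The CR mice gave log2 intensities of 5.87, 6.23, 6.06, 6.00 and 6.39. The lowest, median and highest values were 6.46, 6.67 and 7.12 in MF, 6.21, 6.57 and 6.82 in C, and 5.86, 6.31 and 6.78 in CR-MF. All MF mice lay above all CR mice, by 0.61 in the mean (SE 0.15, adjusted p 0.0188), and the CR-MF mice were spread over both ranges. For Pmepa1, 2 further comparisons had an unadjusted p under 0.01, CR-MF minus MF with a log2 difference of -0.40 (SE 0.14, adjusted p 0.14) and CR minus C with -0.42 (SE 0.14, adjusted p 0.112).

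Skil, which encodes the Smad repressor SnoN, had its highest means in MF (7.12 ± 0.24) and CR (7.11 ± 0.42) and the lowest in C (6.87 ± 0.33). The CR values of 6.89, 6.60, 7.56, 6.97 and 7.54 spanned a wider range than the MF values of 6.80 to 7.45. MF minus CR was 0.01 (SE 0.19), and the smallest p of Skil was for MF minus C (log2 difference 0.25, SE 0.17, adjusted p 1). Unlike the other 8 genes, Skil had a higher mean in CR than in C.

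**Figure D2:**
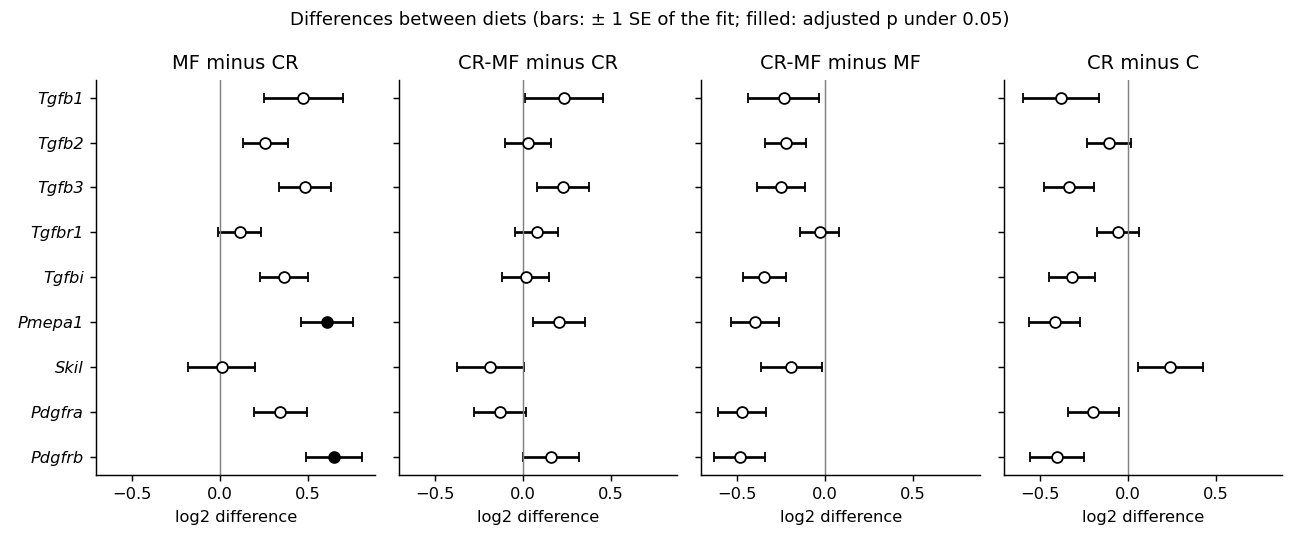
Log2 differences (horizontal axes) of the 9 measured genes for MF minus CR, CR-MF minus CR, CR-MF minus MF and CR minus C, with bars of ± 1 SE from the fit and filled points where the adjusted p is under 0.05. The filled points are Pmepa1 and Pdgfrb in MF minus CR, and all 9 points lie right of 0 there and left of 0 in CR-MF minus MF.

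The promoters of Tgfb1 and Tgfbi are shown because these genes had the highest correlation between mice within the set (given further on). RefSeq (GRCm38.p6) promoters were matched for 6 of the 10 genes. The 250 bases before the annotated start are chr7:25686752-25687001 on the plus strand for Tgfb1 and chr13:56609336-56609585 on the plus strand for Tgfbi. Capitals mark CAGAC or its reverse complement GTCTG, the core sequence that Smad proteins bind, and GGGCGG or CCGCCC, the GC box of Sp1-type factors.
Tgfb1: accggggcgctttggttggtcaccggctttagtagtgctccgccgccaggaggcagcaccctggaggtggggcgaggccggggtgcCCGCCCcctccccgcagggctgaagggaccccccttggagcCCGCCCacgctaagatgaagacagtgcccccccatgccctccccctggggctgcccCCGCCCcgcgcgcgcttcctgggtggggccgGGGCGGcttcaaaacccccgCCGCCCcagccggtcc
Tgfbi: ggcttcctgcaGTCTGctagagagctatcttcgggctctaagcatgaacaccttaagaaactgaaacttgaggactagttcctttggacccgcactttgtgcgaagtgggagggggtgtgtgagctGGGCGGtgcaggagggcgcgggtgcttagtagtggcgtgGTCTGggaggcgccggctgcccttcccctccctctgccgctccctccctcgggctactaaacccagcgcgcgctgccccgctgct
The Tgfb1 stretch held 5 GC boxes and 0 Smad cores. The Tgfbi stretch held 2 Smad cores, with their first bases 239 and 85 bases before the start, and 1 GC box. No marked stretch overlapped another. Of 32851 RefSeq stretches of this length, 42.2% held a Smad core and 32.7% a GC box on either strand, so holding one is common. Among the others, Tgfb2 held 2 Smad cores, Pdgfra and Tgfbr2 held 1 each, and Tgfbr1 held 2 GC boxes before one of its annotated starts and 1 Smad core before the other. Tgfb3, Pmepa1, Skil and Pdgfrb are named only.

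The comparison of lifelong MF with lifelong CR carried the only calls. The MF and CR mice did not overlap for 2 of the 9 genes, against 2.29% of all tested genes that were higher in every MF mouse than in every CR mouse. The plate code in the array names gave 3 sets of arrays, of which 1 held 5 MF and 3 CR mice and each of the others 1 of each. Within them the log2 difference of Pdgfrb was 0.57, 0.95 and 0.70, and that of Pmepa1 0.68, 0.67 and 0.33, in the same direction. On the larger plate alone, G150, neither gene was called (adjusted p 0.115 and 0.0871). With CR mouse B4_1 left out neither was called (adjusted p 0.0572 for Pdgfrb and 0.0625 for Pmepa1), without CR mouse B4_3 Pdgfrb was not (0.0507) and without CR mouse B4_13 Pmepa1 was not (0.0507). Over all tested genes the 758 calls also fell in these fits. They were 76 on plate G150, 331 without B4_1, 256 without B4_3 and 356 without B4_13. A well row code also differed between these groups, with all 7 MF arrays and 2 CR arrays in row G and 3 CR arrays in row F. With this row as a block, the comparison sets MF against the 2 CR arrays in row G alone. These are the CR arrays of the smaller plates, so row and plate cannot be told apart within CR. The differences in this fit were 0.67 (SE 0.22, adjusted p 0.121) for Pdgfrb and 0.52 (SE 0.21, adjusted p 0.188) for Pmepa1.

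The comparison of CR-MF with lifelong CR asks whether 4 months of the MF diet at old age moved these genes. No gene of the set passed in limma, either at an adjusted p of 0.05 (0.6% of tested genes) or at an unadjusted p of 0.05 (12.3%), and none passed with the intensity-based moderated statistic. The means of 7 genes were higher and those of Skil and Pdgfra lower in CR-MF, with a median log2 difference of 0.08. The 95% interval of this difference ran from -0.17 to 0.49 for Pdgfrb, from -0.10 to 0.52 for Pmepa1 and from -0.44 to 0.18 for Pdgfra, so a p above the threshold does not show that CR-MF and CR were alike. The value also moved with single CR-MF mice: for Pdgfrb the log2 difference of 0.16 was 0.03 without BC4_11, 0.09 without BC4_15 and 0.24 without BC4_9, and for Pmepa1 that of 0.21 was 0.13 without BC4_11.

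The comparison of CR-MF with lifelong MF sets mice that ate the same diet at sacrifice side by side. They differ both in the earlier restriction and in the length of MF feeding, 4 months against feeding from young adulthood, and the parts of these cannot be told apart. The comparison shares the MF mice with MF minus CR. The means of all 9 genes were lower in CR-MF, with a median log2 difference of -0.25, against -0.00192 over all tested genes. None passed an adjusted p of 0.05 in limma or with the intensity-based moderated statistic, while 1.44% of tested genes did in limma, and 4 genes had an unadjusted p under 0.05 (14.8% of tested genes). Pdgfrb was lower by a log2 difference of -0.49 (SE 0.15, adjusted p 0.0902), in addition to the values of Pdgfra, Pmepa1 and Tgfbi above. This result turned on single mice. Without CR-MF mouse BC4_11 all 4 genes were called, with adjusted p-values of 0.00834 for Pdgfrb (log2 difference -0.62), 0.0248 for Pdgfra (-0.55), 0.0422 for Tgfbi (-0.43) and 0.0464 for Pmepa1 (-0.48). The calls over all tested genes rose in that fit as well, to 428 of 13934 from 202 of 13993 with all mice. Without CR-MF mouse BC4_15, Pdgfra (0.0258) and Pdgfrb (0.0443) were called, and without MF mouse C4_5, Pdgfra (0.0444). In these fits 249 of 13903 and 165 of 13955 tested genes were called. Leaving out other mice raised the adjusted p instead. Without CR-MF mouse BC4_9 it was 0.212 for Pdgfrb (log2 difference -0.41), 0.175 for Pdgfra and 0.306 for Tgfbi. Without CR-MF mouse BC4_13 it was 0.295 for Pmepa1. All CR-MF arrays carry the well row code H, so row and diet cannot be told apart for CR-MF.

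On the largest plate the 4 genes had CR-MF minus MF differences of -0.58 (Pdgfrb), -0.54 (Pdgfra), -0.49 (Pmepa1) and -0.37 (Tgfbi) with 5 mice a group. On the plate G151, with 1 mouse of each diet, they were -0.77, -0.99, -0.44 and -0.43. On the plate G152, which also holds 1 mouse of each diet and among them BC4_11, they were 0.25, 0.39, 0.07 and -0.17.

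Compared with the C diet, the CR means of 8 genes were lower, with a median log2 difference of -0.32 (0.02 over all tested genes). None was called in limma or with the intensity-based moderated statistic (1.57% of tested genes in limma) and 4 had an unadjusted p under 0.05 (19.8%): Pmepa1, Pdgfrb (-0.40, SE 0.16, adjusted p 0.147), Tgfbi (-0.32, SE 0.13, adjusted p 0.175) and Tgfb3 (-0.34, SE 0.14, adjusted p 0.187). Pdgfrb was the 1 gene of the set for which the groups did not overlap, as was the case for 1.37% of tested genes that were lower in every CR mouse. MF and C did not differ in any gene of the set at an unadjusted p of 0.05 (3.97% of tested genes), although all 9 means were higher in MF, and 0% of all tested genes passed the adjusted threshold. All 8 C arrays carry the well row code F and all 7 MF arrays the code G. Between MF and C, row and diet could be separated only through the CR arrays, which lie in both rows. CR-MF minus C gave no call (0.3% of tested genes) and 2 genes at an unadjusted p under 0.05 (11.4%), Pdgfra (-0.33, SE 0.13, adjusted p 0.347) and Tgfbi (-0.30, SE 0.12, adjusted p 0.331).

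The study screened for genes that stayed at the CR level after the switch. In that screen MF must differ from CR and from CR-MF to the same side, each at a p under 0.01, and the 2 groups with a history of restriction must not differ at a p under 0.05. Pdgfrb and Pmepa1 met it, as did 2.57% of all tested genes. Both differences from MF in the screen use the same MF mice. The intervals of CR-MF minus CR given above leave room for a shift in either gene. No gene of the set met the screen at adjusted p-values of 0.05.

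The SD of the CR-MF mice was the largest of the 4 diets for 7 of the 9 genes, all but Tgfbr1 and Skil, a difference in spread that was not tested. BC4_11 was above the CR-MF mean for 9 of 9 genes, by 0.57 on average, and BC4_15 for 9 of 9, by 0.33. BC4_9 was below it for all 9 (average deviation -0.36), as was BC4_5 (-0.19). In the C group mouse A4_1 was below the mean for all 9 (-0.28) and A4_17 above it for 9 (0.20). BC4_11 had the highest Tgfb1, Tgfb2, Tgfb3, Tgfbr1, Tgfbi, Pmepa1 and Pdgfrb values of the CR-MF mice, and BC4_15 the highest Skil and Pdgfra values.

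**Figure D3:**
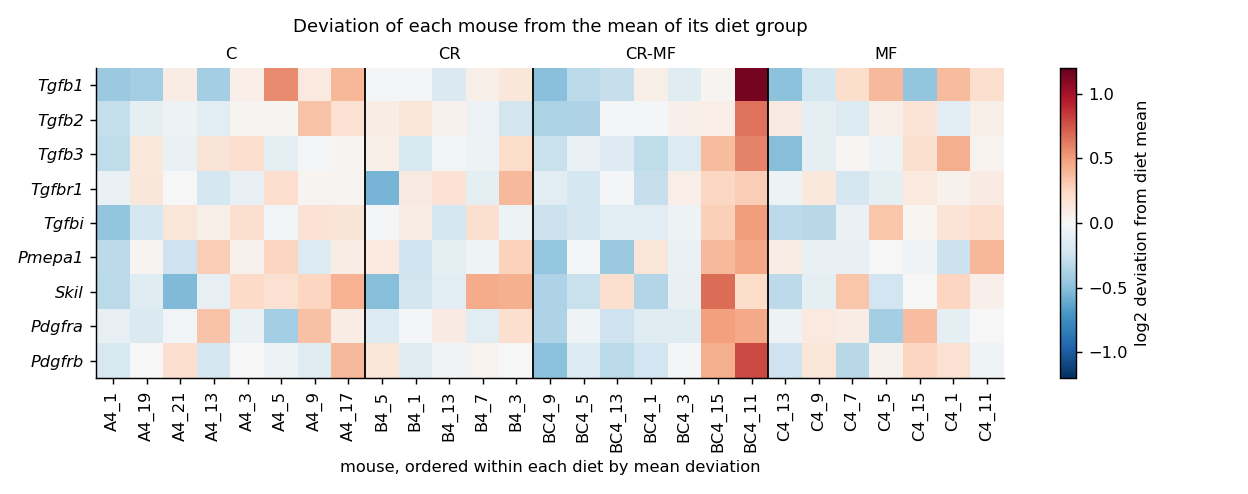
Log2 deviation (colour) of each of the 27 mice (columns, ordered within each diet by their mean deviation) from the mean of its diet group, for the 9 measured genes (rows). The CR-MF mice BC4_11 and BC4_15 are red in all 9 rows, as is the C mouse A4_17, and BC4_9, BC4_5 and the C mouse A4_1 are blue in all 9.

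These shared deviations appear as correlations between the genes. After the diet mean was subtracted, Pearson's r over the 27 mice was positive for all 36 pairs of genes, with a median of 0.438 and a range of 0.115 to 0.731. Within CR-MF alone all were positive too (0.381 to 0.98), but not within MF or C. The range was -0.663 (Tgfb2 with Skil) to 0.741 (Tgfbr1 with Pdgfrb) in MF. In C it was -0.612 (Tgfbr1 with Pdgfra) to 0.742 (Tgfb2 with Skil). How such values run between genes outside the set was not tested. By two-sided permutation tests within diets, 8 pairs had an adjusted p under 0.05 over the 36 pairs, and 5 of them also by Spearman's rho. The highest was Tgfb1 with Tgfbi (r 0.731, adjusted permutation p 0.0072, rho 0.678, adjusted permutation p 0.0234). Without the mice BC4_11 and A4_5, the farthest from the median deviation of Tgfb1, r was 0.718, and on plate G150 it was 0.617. Within diets it was 0.568 in C, 0.883 in CR-MF and 0.73 in MF. For every pair the mice left out were chosen on the first gene named alone. The next was Tgfb3 with Pdgfrb (r 0.714, adjusted permutation p 0.0127, rho 0.629, adjusted permutation p 0.0253). It was 0.957 in CR-MF and 0.588 in MF but 0.138 in C, and it was 0.593 on plate G150 and 0.585 without BC4_11 and C4_13. Pdgfra and Pdgfrb, the receptor pair, had an r of 0.493 (adjusted permutation p 0.0763, rho 0.331, adjusted permutation p 0.211) that fell to 0.22 without BC4_15 and BC4_11 and was -0.129 in C, so this relation rests on those mice. CR held too few mice for a value of its own.

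**Figure D4:**
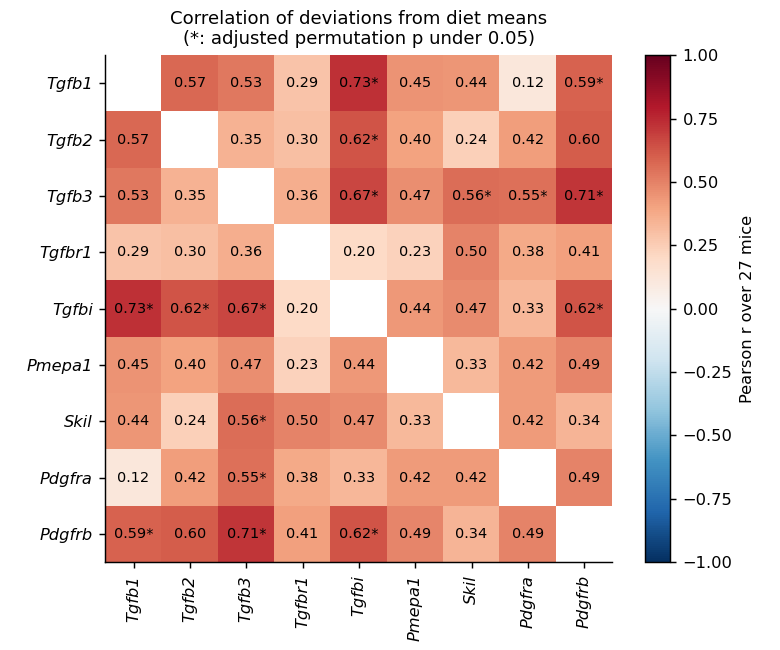
Pearson's r (colour and number) between the 9 measured genes over 27 mice, each value taken as the deviation from its diet mean, with an asterisk where the permutation p adjusted over 36 pairs is under 0.05. All 36 values are positive, the highest being 0.731 for Tgfb1 with Tgfbi.

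The genes most like each gene of the set were found by the same r over the 27 mice among all tested genes, as a description. For Tgfb1 these were Il10rb (r 0.95), Flna (0.928) and Pla2g4a (0.928), and for Tgfbi they were Csf2rb2 (0.873), Lpcat2 (0.859) and again Flna (0.858). Il10rb and Csf2rb2 encode cytokine receptor subunits, and Flna an actin-crosslinking protein. For Tgfb2 they were Cd8a (0.838), Sh2d2a (0.828) and Ctsw (0.814), all known from T and NK cells. BC4_11 had the highest Tgfb2 value of the CR-MF mice (5.27, the next 4.70). It also had their highest mean deviation of the T and NK cell markers (1.28, group median -0.27). For Pdgfrb they were Col1a2 (0.862), a chain of type I collagen, Prss23 (0.843) and Emp1 (0.842), and for Tgfb3 Emp1 (0.793), Olfml3 (0.792) and Selenom (0.785). For Pdgfra they were Bicc1 (0.774), Adamtsl2 (0.708) and Cyp1b1 (0.7). Tgfbr1 was most like Sftpa1 (0.824), Zcchc9 (0.823) and Ankib1 (0.757), Pmepa1 like Panx1 (0.723), Pggt1b (0.72) and Fgl2 (0.719), and Skil like Igfbp1 (0.87), Tab2 (0.824) and Ccnl1 (0.82). All of these share the arrays and their scaling with the gene they are like, and their r was not taken again with single mice left out.

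The rest of the TGFβ pathway is given by lists that leave out the genes above, each beside the 5.42% of tested genes called in MF minus CR. Of 20 tested genes that bind, store or release latent TGFβ, 17 had a higher mean in MF and 3 rose, with a median log2 difference of 0.26. These were Ltbp1, which holds the latent complex in the matrix (0.43, SE 0.12, adjusted p 0.0415), Itgb8, a subunit of a TGFβ-activating integrin (0.54, SE 0.15, adjusted p 0.04), and the gelatinase Mmp2 (0.89, SE 0.26, adjusted p 0.0419). Ltbp1 was also lower in CR-MF than in MF, by a log2 difference of -0.52 (SE 0.11), the only gene of the list called there. Ltbp1 means were 6.11 ± 0.13 in CR, 6.02 ± 0.32 in CR-MF, 6.26 ± 0.10 in C and 6.54 ± 0.22 in MF, so the CR-MF mean was the lowest of the 4.

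Of 8 tested genes of receptors, coreceptors and proteins that bind them, 4 had a higher mean in MF, with a median of 0.03. At an unadjusted p under 0.05 there were 1 higher and 2 lower. Only Lrg1 was called, higher in MF (0.62, SE 0.18, adjusted p 0.0389). It encodes a secreted glycoprotein, made by hepatocytes, that binds the coreceptor endoglin. Of 16 tested Smads, adaptors and nuclear partners none was called and 2 had an unadjusted p under 0.05 (23.7% of all tested genes did), the transcription factor genes Runx1 (0.83, adjusted p 0.11) and Runx3 (0.63, adjusted p 0.188). The list's median was 0.00. Of 13 tested genes of negative feedback none was called, 7 had a higher mean in MF with a median of 0.05, and 3 had an unadjusted p under 0.05 (1 higher and 2 lower), a share close to that 23.7%. The lowest p-values were those of the phosphatase gene Ppm1a (-0.23, adjusted p 0.1) and of the inhibitory Smad7 (-0.41, adjusted p 0.122).

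Of 34 tested genes known to be induced by TGFβ in mesenchymal cells, 29 had a higher mean in MF than in CR, with a median log2 difference of 0.29, and 2 rose. These were the proteoglycan gene Bgn (0.38, SE 0.09, adjusted p 0.0154) and Plod2, a lysyl hydroxylase that modifies collagen for crosslinking (0.61, SE 0.16, adjusted p 0.0302). At an unadjusted p under 0.05 there were 14 higher and 2 lower, against 23.7% of all tested genes in either direction. Bgn was also called in CR-MF minus MF (-0.31, SE 0.08), the only gene of the list. Bgn means were 11.23 ± 0.06 in CR, 11.29 ± 0.20 in CR-MF, 11.52 ± 0.13 in C and 11.60 ± 0.16 in MF. The fibrillar collagen genes, chosen for mention after their values were seen, were not called in MF minus CR: Col1a1 differed by 0.54 (adjusted p 0.13), Col1a2 by 0.57 (adjusted p 0.109) and Col3a1 by 0.44 (adjusted p 0.142). Acta2, the smooth muscle actin of myofibroblasts, differed by 0.03 (SE 0.24, adjusted p 0.95).

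Of 22 tested PDGF ligands and signalling genes, Pik3r1, the regulatory subunit of PI3-kinase, rose in MF (0.39, SE 0.11, adjusted p 0.04), and Pdgfrl, a receptor-like gene without a kinase domain, fell (-0.63, SE 0.13, adjusted p 0.00848). Pdgfrl means were 6.35 ± 0.32 in CR, 6.16 ± 0.12 in CR-MF, 5.94 ± 0.27 in C and 5.72 ± 0.16 in MF. It was thus ordered the other way round from Pdgfrb. The 4 ligand genes, also chosen for mention after their values were seen, had MF minus CR differences of 0.57 for Pdgfa (SE 0.20, adjusted p 0.0822), 0.65 for Pdgfb (SE 0.23, adjusted p 0.0902), 0.67 for Pdgfc (SE 0.23, adjusted p 0.0772) and 0.20 for Pdgfd (SE 0.19, adjusted p 0.527), none of them called. Of 19 tested immediate early genes that growth factors induce, Klf6 rose (0.87, SE 0.26).

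Stellate cell markers went with Pdgfrb and Pmepa1 in part. Of 26 tested markers 19 had a higher mean in MF than in CR, with a median of 0.17. Adamtsl2 (0.94, SE 0.16), a secreted protein that binds latent TGFβ-binding protein, Cygb (0.50, SE 0.11), the globin of stellate cells, and Lum (0.85, SE 0.22), a collagen-binding proteoglycan, rose, while Bmp10 (-0.55, SE 0.13) fell. The mean log2 deviation of the 26 measured markers from their means over all arrays ranged from -0.18 to -0.01 in the CR mice, from -0.12 to 0.40 in the MF mice, from -0.15 to 0.14 in the C mice and from -0.28 to 0.27 in the CR-MF mice. The means of this deviation were -0.10 in CR-MF, the lowest of the 4 diets, -0.08 in CR, 0.03 in C and 0.12 in MF. Of 15 tested markers of activated stellate cells and myofibroblasts only Mmp2 was called, with a median of 0.38, and Lox, Cdh11 and Fap had means below the intensity minimum. Of 12 tested portal fibroblast markers, Dpt (1.24, SE 0.24) and Gas6 (1.14, SE 0.24) rose, and both were lower in CR-MF than in MF (-1.19, SE 0.22 and -0.95, SE 0.22).

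For other cell types that make or answer to these ligands, some marker lists held genes called in MF minus CR. These calls stand beside the 5.42% of all tested genes called. All 13 tested markers of recruited and lipid-associated macrophages had a higher mean in MF, with a median of 0.88, and Gpnmb (1.57, SE 0.44), Trem2 (1.41, SE 0.40) and Ccr2 (0.98, SE 0.27) rose. Their mean deviation ranged from -0.66 to -0.40 in CR, from -0.29 to 0.68 in MF, from -0.77 to 0.64 in CR-MF and from -0.18 to 1.04 in C, so CR lay below MF and C without overlap, and BC4_11 was the highest CR-MF mouse. Of 15 Kupffer cell markers 11 had a higher mean in MF, C1qb rose (0.80, SE 0.24) and Cd163 fell (-1.96, SE 0.55). Of 8 tested cholangiocyte markers 7 had a higher mean in MF, and Muc1, Pkhd1 and Tspan8 rose (0.58, 0.51 and 0.55). Of 12 T and NK cell markers 10 had a higher mean in MF, and Themis rose (1.85, SE 0.28). Of 6 platelet and 12 B and plasma cell markers none was called, with 4 and 11 higher in MF. Of 20 sinusoidal endothelial markers 8 had a higher mean in MF, with a median of -0.08. Flt4 rose (0.50, SE 0.10) and Ehd3 (-0.85, SE 0.14) and Bmp2 (-0.63, SE 0.15) fell. Of 12 smooth muscle and pericyte markers 5 had a higher mean in MF and none was called. Of 17 measured hepatocyte markers 10 passed the filter and were tested. Among these 10, Tat, Pck1 and Cps1 fell (-0.46, -0.40 and -0.29), 4 had a higher mean in MF, and the list median was -0.08. Chil3 of the recruited macrophages, Cftr, Cldn7 and Dmbt1 of the cholangiocytes and Cd3d, Klrb1c and Ncr1 of the T and NK cells had means below the intensity minimum. In CR-MF minus MF, Flt4 (-0.49, SE 0.09), Tspan8 (-0.56, SE 0.14) and Themis (-1.04, SE 0.25) were lower in CR-MF. Themis did not stand for its list: of the 12 T and NK cell markers 6 had a higher mean in CR-MF, with a median of -0.02. Of the 20 endothelial markers 5 had a higher mean in CR-MF, with a median of -0.15 in that comparison. Further lists held calls there, all lower in CR-MF, beside the 1.44% of tested genes called and the 14.8% with an unadjusted p under 0.05; the genes named for them were chosen after their values were seen. Of the 8 tested cholangiocyte markers 3 were called, Epcam (-0.78, SE 0.18), Tm4sf4 (-0.81, SE 0.19) and Tspan8, and at an unadjusted p under 0.05 there were 7 lower and 1 higher. Of the 13 recruited macrophage markers all had a lower mean in CR-MF, with a median of -0.57, Cd9 was called (-0.76, SE 0.18) and 6 had an unadjusted p under 0.05. Of the 26 stellate cell markers only 5 had a higher mean in CR-MF, with a list median of -0.19, Colec11 was called (-0.51, SE 0.12) and 11 had an unadjusted p under 0.05, all lower in CR-MF. These lists thus lay lower in the same comparison as Pdgfrb, Pdgfra, Tgfbi and Pmepa1. BC4_11 had the highest mean deviation of the CR-MF mice on the stellate, activated stellate, portal fibroblast, Kupffer, recruited macrophage, endothelial, platelet and T cell lists. The part of cell type make-up in the levels of the TGFβ and PDGF genes was not tested.

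**Figure D5:**
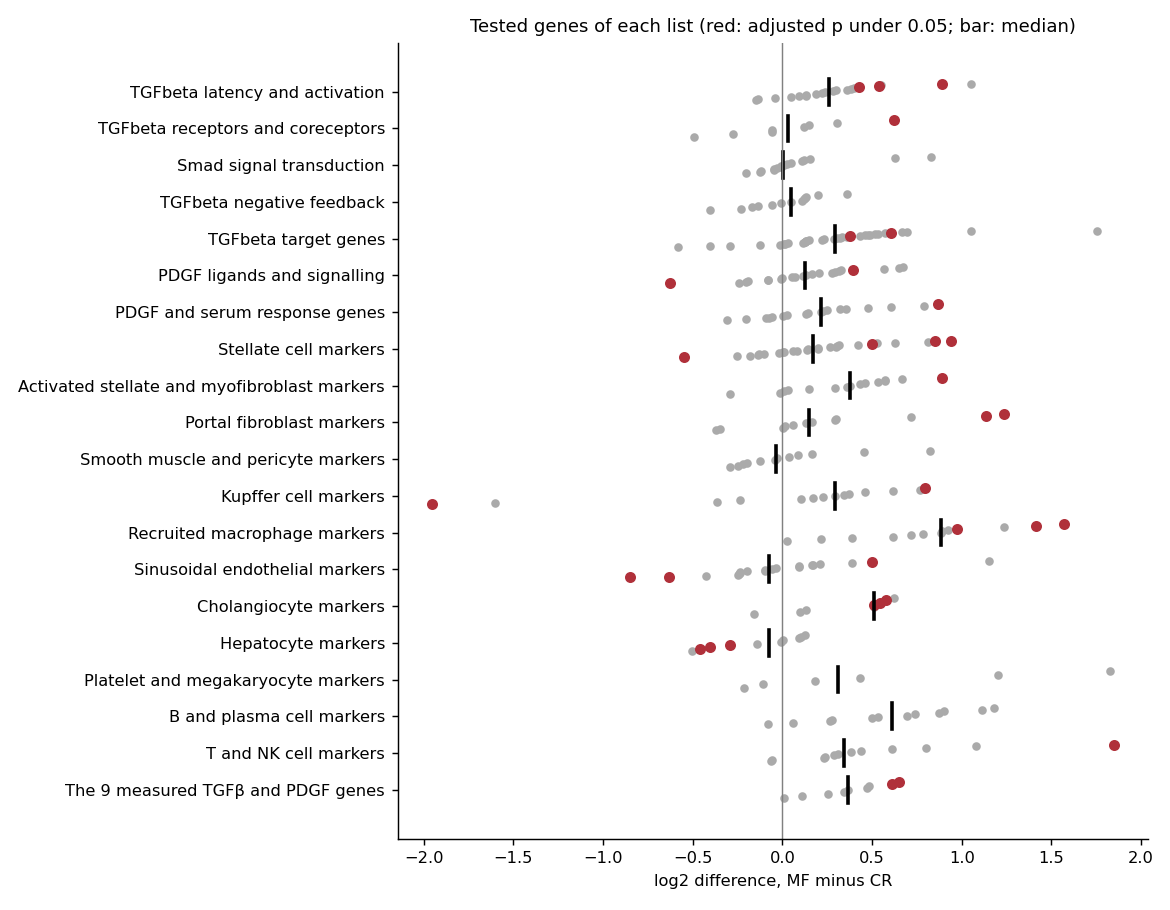
Log2 difference of MF minus CR (horizontal axis) of each tested gene of the pathway and cell type lists (rows), with the 9 measured TGFβ and PDGF genes in the lowest row, red points for an adjusted p under 0.05 and a bar at the median. The medians lie at 0.36 for the 9 genes, 0.29 for the TGFβ target genes, 0.88 for the recruited macrophage markers and 0.00 for the Smad list.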

How the data were processed

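The authors hybridised total liver RNA to Affymetrix Mouse Gene 1.1 ST arrays and deposited log2 intensities per transcript cluster, made with RMA (Robust Multiarray Average, which corrects background, normalizes between arrays and combines probes). Clusters with 1 symbol were named through the platform annotation (21218 clusters for 18820 genes, 1881 with several symbols and 12457 with none listed), and the cluster with the highest mean stood for a gene. A gene was tested where its intensity exceeded 20 (log2 4.32) on 5 or more arrays and its interquartile range exceeded 0.1. A linear model over the 27 arrays, each 1 mouse, was fitted with limma 3.58.1 in R 4.3.3 (lmFit, then eBayes with trend on; 23 residual degrees of freedom), with Benjamini-Hochberg adjustment over the 13993 tested genes. The number of arrays and signal over background limit the precision. No value columns were left unmapped.

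The fit was tested on simulated data of 13993 genes, 100 changed per size. For a log2 change of 0.5 it recovered 69 in MF minus CR, 66 in CR-MF minus CR, 70 in CR-MF minus MF and 61 in CR minus C, and for a change of 1 it recovered 90, 95, 94 and 92. Unchanged genes called in the same fits numbered 15, 5, 8 and 1. The simulated noise was normal, independent between genes and of the same SD in all diets, and the changed genes were picked at random. In the real data the spread differed by diet, as for Pdgfrb with an SD of 0.11 in CR and 0.45 in CR-MF. These counts are thus not the chance of finding a change in a gene of the set.

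For correlations, diet means were subtracted, values were permuted within diets 100000 times, and p-values were adjusted over 36 pairs. The genes and lists were chosen with earlier results of these data known. For each gene of the set, comparisons with an unadjusted p under 0.01, or that with the smallest p, were reported in full, with other values beside them; of each list, up to 4 genes per direction called in MF minus CR were named, or the 2 with the smallest p, and the 3 most similar genes per gene of the set. Plate and well row were read from the array names, and this reading is inferred. The array title of C mouse A4_9 carries a further suffix of unknown meaning. Alternatives were quantile normalization, median centring, no filter or a stricter one (intensity above 100), eBayes without a trend or robust, the intensity-based moderated statistic of the study's methods, array weights, only the groups compared, a block for plate, for well row or for animal number, plate G150 alone, the cluster with the highest variance, other thresholds and leaving out each mouse.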

Additional observations from a re-analysis of the deposited data

Results flagged for a closer look

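Among 36 checks of 9 genes in 4 diet groups, 1 mouse stood apart from the rest of its group. CR-MF mouse BC4_11 had a Tgfb1 log2 intensity of 9.10 against 8.02 in the next mouse, a gap of 0.656 of the range of the group by Dixon's test. Chance marks about 1 in 20 groups in this way.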

How the results depend on the processing

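In MF minus CR, 2 genes of the set were called. This became 0 on plate G150 alone, 0 with well row as a block and 1 with animal number as a replicate block. At an unadjusted p under 0.05 there were 6, and leaving out 1 mouse gave 0 (CR B4_1) to 3 (MF C4_13). Over all tested genes, the 758 calls became 76 on plate G150, 138 with well row and 297 with animal number as a block. They became 331 without CR B4_1 and 1176 without MF C4_13. Whether the animal numbers pair the mice is not known and was not tested. Same-numbered mice of different diets correlated with a median r of 0.0942 (-0.255 to 0.357), against -0.0235 for differently numbered mice of different diets. With animal number as a block, in a fit over 24 mice, Pmepa1 was still called and Pdgfrb was not (adjusted p 0.0684). For Pdgfrb the adjusted p over all alternatives other than leaving out 1 mouse ranged from 0.00522 to 0.121, for Pmepa1 from 0.0127 to 0.188. Tgfb3 was called without a trend (0.0496) and with array weights (0.0271). Its adjusted p was 0.136 on plate G150 alone, 0.189 with animal number and 0.314 with well row as a block. In CR-MF minus MF, 0 genes were called, against 4 with array weights, 4 at an unadjusted p under 0.05 and 0 to 4 (without CR-MF BC4_11) with 1 mouse left out. In CR minus C, 0 became 2 with array weights, 1 with only the groups compared and 4 without adjustment. In CR-MF minus C, 0 became 2 with array weights and 2 without adjustment. The screen, met by 2 genes, was met by 4 with array weights, 4 at a p threshold of 0.05, 0 at an adjusted one, and 1 (without MF C4_11) to 4 (without CR-MF BC4_11) with 1 mouse left out. The sign of 2 small differences changed: Tgfbr1 in MF minus CR, 0.11, was -0.17 with well row as a block and -0.0295 (without CR B4_5) to 0.21 (without CR B4_3), and Pdgfrb in CR-MF minus CR, 0.16, was -0.00534 on plate G150 alone. Other uncalled differences moved by over 1.5 times and kept their sign. With animal number as a replicate block Tgfb2 in MF minus CR, 0.26, was 0.15 (0.16 on plate G150), Tgfbr1 0.04, Skil in MF minus C, 0.25, was 0.06 (0.01 with well row as a block), and in CR-MF minus CR Pdgfrb was 0.01 and Pmepa1, 0.21, was 0.12. With array weights these last were 0.02 and 0.10, and Tgfbr1 in MF minus CR was 0.03; on plate G150 the latter was 0.30. With well row as a block, MF minus CR sets the MF mice against only the CR mice in row G. The cause of these shifts was not tested. No comparison of CR-MF could be fitted with well row as a block. Why array weights changed calls was not tested; smaller fits hold fewer mice.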
